A study of Mus musculus with 4 samples.

Results

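A set of 10 genes that encode ligands, antagonists, receptors and targets of bone morphogenetic protein (BMP) and Wnt signalling was followed through normal, inflamed and cancerous mouse pancreas. They are Grem1, Bmp4, Bmp2, Bambi, Id1, Sfrp1, Sfrp2, Sfrp4, Wnt5a and Rspo3, of 32285 genes in the files. The set was chosen by the levels of Grem1 and Sfrp2, which differ strongly between these libraries in fibroblasts, so the levels of those genes in fibroblasts are given as a description. The design text states that the study asked how interleukin-1 (IL-1) signalling acts in pancreatic ductal adenocarcinoma.

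Each of the 4 groups is 1 single-cell library from 1 mouse tissue, harvested at 4 weeks. The AF12198-treated tumour grew from KPC cells (a mouse pancreatic cancer cell model) inoculated into a pancreas that had been tied off with a suture, and the mouse had weekly intraperitoneal AF12198, a peptide that blocks the IL-1 receptor IL1R1. The control tumour was made the same way with weekly saline. The ligated pancreas had the suture, which closes the duct and brings on pancreatitis, and no KPC cells. The normal pancreas had neither. Both tumours therefore carry the suture injury as well, and the drug was given to the whole animal, not to 1 cell type. Strain, sex and age of the mice, and whether cells of several mice were pooled, are not stated in the sources used here. With 1 library a group no difference below has a replicate check and no test was made. Intervals in brackets are exact 95% intervals that cover counting error only.

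BMPs are secreted ligands that act through type I and type II receptors and SMAD proteins, and Wnts act through Frizzled receptors and LRP co-receptors. Fibroblasts and related stromal cells set the local strength of both pathways by secreting ligands together with proteins that trap or amplify them. In the gut and in pancreatic cancer, stromal Grem1 is a known source of BMP antagonism, and R-spondins and Sfrp proteins shift how strongly neighbouring cells respond to Wnt.

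The kept cells numbered 18875 in the AF12198-treated tumour, 19235 in the control tumour, 1124 in the ligated pancreas and 1771 in the normal pancreas, with medians of 2298, 2035, 2216 and 1589 unique molecular identifiers (UMIs, 1 per captured transcript) a cell in that order. Of 40873 barcode sequences among the kept cells, 132 were found in more than 1 library. Clustering made without the 10 genes gave 31 clusters, of which 1 was fibroblast-like. It held 524, 1350, 281 and 91 cells in the same order, and all 16 fibroblast markers had UMIs in it in each library. These cells were deeper in the tumours, with median totals of 9406 and 8520.5 UMIs in the AF12198-treated and control tumours against 4386 in the ligated and 4193 in the normal pancreas. The cluster was cut further into 11 sub-clusters. Of the ligated cells 243 of 281 and of the normal cells 90 of 91 fell in sub-cluster 2, which held only 30 of 524 and 32 of 1350 cells of the AF12198-treated and control tumours. The leading genes of sub-cluster 2 were mostly acinar enzymes (Cela2a, Pnlip, Clps, Cela3b), with Abca8a and Inmt among them. Leading genes were ranked against the other fibroblast-like cells, so markers shared by the class can hardly appear among them. Over the whole class, summed fibroblast markers stood at 50398, 55918, 58408 and 31760 CPM in the same order of libraries. Summed acinar markers stood at 727 CPM in the ligated and 944 CPM in the normal pancreas. Comparisons of a tumour with a pancreas therefore also compare different fibroblast-like cells.

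Promoter sequence is shown because the study's title names the transcription factor NFAT in cancer-associated fibroblasts. It is given for Grem1, Sfrp2 and Bmp4, the only 3 of the 10 genes that the RefSeq promoter table used here holds (build GRCm38.p6). Within the set the 3 genes were thus taken by what that source holds, although Grem1 and Sfrp2 are the genes by which the set was chosen. Each run is the 250 bases before the gene's start, read in the direction of the gene. The Grem1 window lies at chr2:113758649-113758898 on the minus strand, the Sfrp2 window at chr3:83766071-83766320 on the plus strand and the Bmp4 window at chr14:46390670-46390919 on the minus strand. Capitals mark matches to GGAAA, the core bound by NFAT, or to GGCGCC, a SMAD-binding box of BMP-responsive genes, on either strand.
Grem1: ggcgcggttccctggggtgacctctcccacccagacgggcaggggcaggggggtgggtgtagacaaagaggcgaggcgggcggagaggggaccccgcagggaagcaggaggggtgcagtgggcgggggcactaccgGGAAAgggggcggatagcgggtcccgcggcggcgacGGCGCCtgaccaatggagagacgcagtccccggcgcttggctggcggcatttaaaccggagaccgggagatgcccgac
Sfrp2: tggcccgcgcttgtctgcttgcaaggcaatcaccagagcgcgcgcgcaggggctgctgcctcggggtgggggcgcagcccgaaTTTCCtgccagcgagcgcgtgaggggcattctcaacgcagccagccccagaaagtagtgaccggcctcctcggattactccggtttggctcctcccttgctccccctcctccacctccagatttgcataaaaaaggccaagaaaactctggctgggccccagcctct
Bmp4: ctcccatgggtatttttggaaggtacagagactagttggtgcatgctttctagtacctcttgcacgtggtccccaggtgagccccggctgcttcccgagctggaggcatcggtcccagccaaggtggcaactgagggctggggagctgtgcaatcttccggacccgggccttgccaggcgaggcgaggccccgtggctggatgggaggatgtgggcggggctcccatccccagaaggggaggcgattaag
The Grem1 window held GGAAA once, at -114 from the start, and GGCGCC once, at -78. The Sfrp2 window held the NFAT core once, at -167, on the minus strand, where it reads TTTCC in the printed run, and no GGCGCC. Neither motif was in the Bmp4 window. The AP-1 site TGANTCA and the TCF/LEF core CTTTGA were in none of the 3 windows. Such letters are common: of 32851 mouse promoter windows of the same length, 55.6% held GGAAA, 9.59% GGCGCC, 6.75% TGANTCA and 13.8% CTTTGA, on either strand and with overlaps between motifs allowed. A match describes the letters and is not a binding site.

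In fibroblast-like cells the BMP side of the set had its highest levels in different tissues: the antagonist Grem1 in the control tumour and the ligand Bmp4 in the normal pancreas. Levels are UMIs summed over the cells of a class, per 1000000 UMIs of that class (CPM), and are compared between libraries, not between genes. Grem1 encodes gremlin 1, a secreted protein that binds BMP2 and BMP4 and keeps them from their receptors. It stood at 9.14 CPM [6.85 to 12.0] in the AF12198-treated tumour (53 UMIs), 79.8 [75.1 to 84.6] in the control tumour (1096 UMIs), 2.62 [0.851 to 6.11] in the ligated pancreas (5 UMIs) and 0 in the normal pancreas, where a count of 0 allows up to 5.25 CPM. The control tumour lay far above the others, and the intervals of the ligated and normal pancreas cannot be told apart at this depth.

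Few cells carried Grem1. In the AF12198-treated tumour 21 of 524 fibroblast-like cells (4.01%) had a Grem1 UMI, against 117 of 1350 (8.67%) in the control tumour. In the ligated pancreas 2 cells did, 1 of them with 80.0% of the UMIs, and 0 of 91 did in the normal pancreas, which, by 3 counts of 91, allows up to 3.30% of cells with a UMI and does not limit the share of cells that express the gene. T-like cells, which should lack the transcript, had one in 0.0810% and 0.252% of cells in the AF12198-treated and control tumours, at median depths of 2657 and 1915 UMIs, so the fibroblast shares of both tumours stood above that background. In the ligated pancreas 1 of 58 T-like cells (1.72%) had one at a median of 794.5 UMIs, against 0.712% of fibroblast-like cells. These counts are too few to set the ligated level apart from background. With each cell thinned to 1000 UMIs the fibroblast shares were 0.596% and 2.98% in the AF12198-treated and control tumours. In the control tumour 12 cells held at least 50% of the Grem1 UMIs and the highest held 11.1%.

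Bmp4, a ligand that Grem1 traps, stood at 4.14 CPM [2.65 to 6.16] in the AF12198-treated tumour, 12.2 [10.4 to 14.1] in the control tumour, 23.6 [17.2 to 31.5] in the ligated pancreas and 145 [116 to 180] in the normal pancreas. No neighbouring pair in this order had overlapping intervals, and the normal pancreas was far above the rest. The share of cells with a Bmp4 UMI ran the same way despite the shallower cells of the pancreas libraries: 3.63%, 7.78%, 11.4% and 36.3%. In the other classes of the normal pancreas it stood at 34.7 CPM in endothelial-like and 0.993 CPM in epithelial-like cells.

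Bmp2, the closest relative of Bmp4, stood at 12.6 CPM [9.87 to 15.8] in the AF12198-treated tumour, 7.28 [5.92 to 8.85] in the control tumour, 24.6 [18.1 to 32.7] in the ligated pancreas and 31.5 [18.7 to 49.7] in the normal pancreas. The pancreas libraries overlapped each other and lay above both tumours. In blood cells of the tumours (neutrophil-, T-, B- and erythroid-like together) Bmp2 was at 1.37 and 4.35 CPM, so the control tumour's fibroblast level is near the level of cells that are not stromal.

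Bambi encodes a receptor-like protein without a kinase that dampens signalling by BMP and TGF-beta receptors. It stood at 16.7 CPM [13.6 to 20.4] in the AF12198-treated tumour, 19.6 [17.3 to 22.1] in the control tumour, 38.2 [30.0 to 48.1] in the ligated pancreas and 15.7 [7.20 to 29.9] in the normal pancreas. T-like cells were at 12.2 and 14.6 CPM in the AF12198-treated and control tumours, so the tumour fibroblast levels of Bambi are near those of cells that are not stromal. Immune cells held much of the Bambi of the tumours. Macrophage- and monocyte-like cells held 45.1% and 29.5% of its UMIs in the AF12198-treated and control tumours, and neutrophil-like cells 19.9% and 28.0%. In the ligated pancreas the blood cells were at 25.7 CPM on 5 UMIs. Id1 encodes a helix-loop-helix inhibitor whose transcription is switched on by BMP receptors. It stood at 19.5 CPM [16.1 to 23.4] in the AF12198-treated tumour, 25.9 [23.3 to 28.7] in the control tumour, 21.5 [15.4 to 29.1] in the ligated pancreas and 47.2 [31.1 to 68.7] in the normal pancreas. For Id1 the interval of the normal pancreas lay above those of the other 3 libraries. Neutrophil-like cells held 37.4% and 17.2% of the Id1 UMIs of the AF12198-treated and control tumours, and fibroblast-like cells 3.02% and 9.68%. The part of neutrophil UMIs in the fibroblast-like Id1 levels was not tested.

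On the Wnt side, the secreted Frizzled-related proteins were higher in both tumours than in the normal pancreas, while the ligand Wnt5a and the R-spondin Rspo3 were highest in the normal pancreas. Sfrp1, which binds Wnts outside the cell, stood at 1816 CPM [1782 to 1851] in the AF12198-treated tumour, 1999.97 [1976 to 2024] in the control tumour, 349 [323 to 377] in the ligated pancreas and 215 [179 to 257] in the normal pancreas. A Sfrp1 UMI was found in 84.0%, 86.6%, 44.8% and 35.2% of the cells in that order. T-like cells had one in 1.42% and 2.64% of cells in the AF12198-treated and control tumours, at the depths given above. Thinned to 1000 UMIs, the fibroblast shares were 57.7%, 57.8%, 23.4% and 20%, so the step between tumours and pancreas was also there at equal depth.

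Sfrp2, a close relative of Sfrp1, stood at 443 CPM [426 to 461] in the AF12198-treated tumour, 523 [511 to 535] in the control tumour, 276 [253 to 300.1] in the ligated pancreas and 3.50 [0.424 to 12.6] in the normal pancreas, where it rests on 2 UMIs. A Sfrp2 UMI was found in 51.7%, 54.7%, 27.4% and 2.20% of the cells. The ligated pancreas thus lay between the tumours and the normal pancreas, and was far from the normal pancreas. Sfrp4, another member of the family, stood at 129 CPM in each tumour, 225 CPM in the ligated pancreas and 8.74 CPM in the normal pancreas (5 UMIs). In the ligated pancreas 4 cells held at least 50% of the Sfrp4 UMIs and 1 cell held 25.4%, while the share of cells with a UMI was 28.6%, 28.3%, 22.1% and 5.49% across the 4 libraries.

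Wnt5a, a ligand of the branch of Wnt signalling that does not need beta-catenin, stood at 53.8 CPM [48.0 to 60.2] in the AF12198-treated tumour, 108 [102 to 113] in the control tumour, 103 [89.3 to 119] in the ligated pancreas and 154 [123 to 190] in the normal pancreas. The AF12198-treated tumour was the lowest library, and the control tumour and the ligated pancreas overlapped. Rspo3, which amplifies Wnt signalling by keeping Frizzled receptors at the cell surface, stood at 19.3 CPM in the AF12198-treated tumour, 22.0 in the control tumour, 43.5 in the ligated pancreas and 185 [152 to 224] in the normal pancreas. Both tumours were close together for Rspo3, and the normal pancreas was apart from all.

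**Figure D1:**
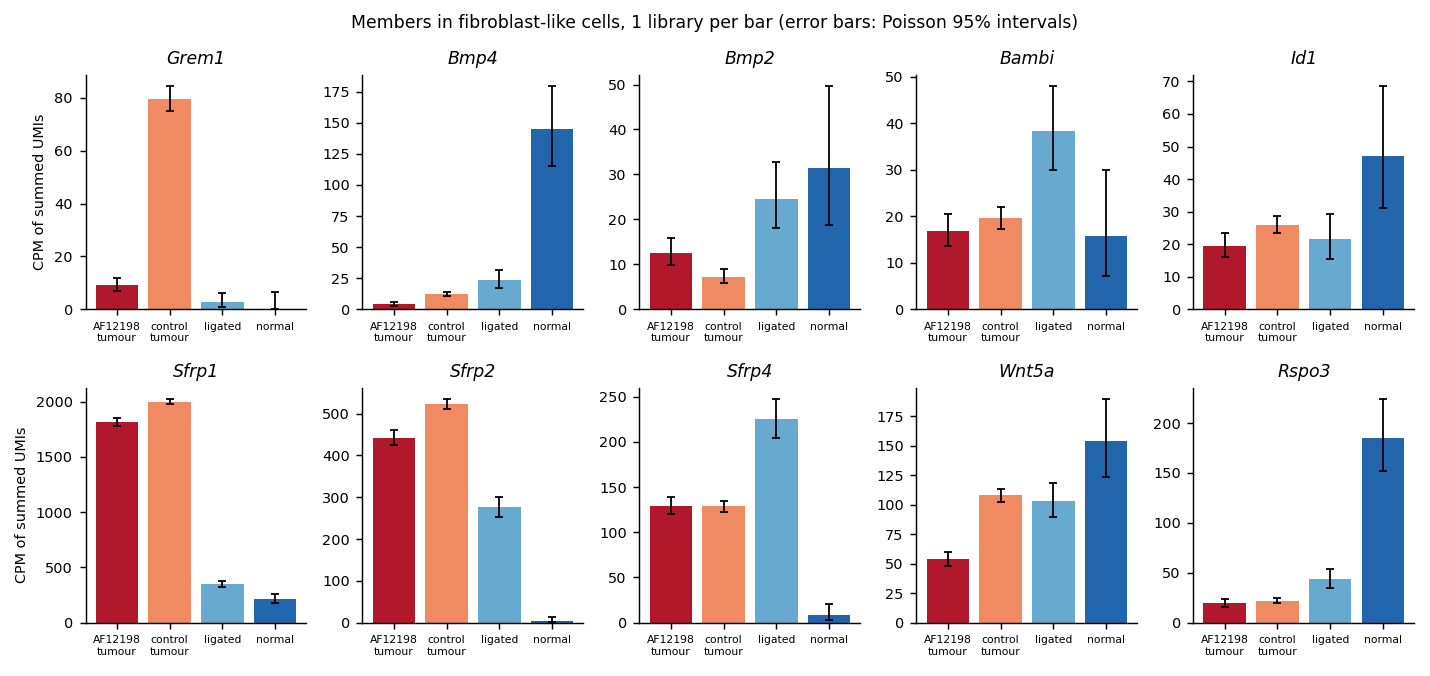
Level of each of the 10 genes in fibroblast-like cells, in CPM (vertical axes start at 0 and differ between panels), with bars for the AF12198-treated tumour, the control tumour, the ligated pancreas and the normal pancreas and error bars for exact 95% intervals of the counts. Grem1 stands out in the control tumour at 79.8 CPM, Sfrp1 and Sfrp2 are high in both tumours, and Bmp4 and Rspo3 are highest in the normal pancreas.

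In fibroblast-like cells the AF12198-treated tumour was first set against the control tumour, with 1 library each, so an effect of the drug was not tested. Grem1, Bmp4 and Wnt5a stood lower and Bmp2 higher, and the 3 Sfrp genes were close to equal. A gene was counted as higher or lower at 1.5-fold on log2(CPM + 1), after subtracting the median over all measured genes, which was -0.27 here. Among 10 measured members 1 was higher, where 14.4% of 10744 measured genes were, and 3 were lower, where 7.87% of those genes were. Since the set was chosen for Grem1 in these cells, nothing is read from that share. The median of the members was 0.04 on the centred log2 scale.

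Grem1 was 8.72-fold lower in the AF12198-treated tumour [6.62 to 11.7] and 2.73 lower on the centred log2 scale. Bmp4 was 2.94-fold lower [1.91 to 4.71], on 24 UMIs against 167 in the control tumour, but its centred log2 difference was 0.26 with finer clustering (Leiden resolution 2.0). Wnt5a was 2.002-fold lower [1.77 to 2.27], with a centred log2 difference of -0.72. These are a BMP antagonist, a ligand it traps, and a Wnt ligand. Bmp2 was 1.73-fold higher [1.26 to 2.36], but its centred log2 difference was -0.057 when cells were classed by a marker gate. The remaining members had centred log2 differences of 0.13 for Sfrp1, 0.03 for Sfrp2, 0.27 for Sfrp4, 0.05 for Bambi, 0.09 for Rspo3 and -0.13 for Id1. Levels of the Sfrp genes thus differed between the tumours by less than 1.5-fold, while Grem1 from the same cells differed several-fold.

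The class also held UMIs of genes listed as markers of other cell types, and their sums differed between the tumours. The summed neutrophil markers stood at 652 CPM in the AF12198-treated tumour (12 of 13 markers with a UMI) and 965 in the control tumour (13 of 13). The mesothelial markers stood at 188 and 381 CPM (8 of 8 in both), of which Wt1 alone gave 102 and 229 CPM. Pericyte and smooth muscle markers stood at 2117 CPM (13 of 13) and 1181 CPM (12 of 13) in the AF12198-treated and control tumours. Whether these UMIs came from other cell types was not tested. Without the 5 sub-clusters led by immune, erythroid or mesothelial genes, and with sub-cluster 2, in which Grem1 had 0 UMIs in both tumours, kept, Grem1 stood at 9.04 CPM in the AF12198-treated tumour and 72.8 in the control tumour, 8.06-fold lower [5.93 to 11.2], Bmp4 was 2.74-fold lower, Wnt5a 1.97-fold lower and Bmp2 1.57-fold higher. The part of the pericyte signal in these differences was not tested.

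The other genes of both pathways, those outside the set of 10, are counted beside the 14.4% of all genes that were higher and the 7.87% that were lower. Of 5 other BMP ligands measured, 9 other BMP antagonists, 5 other Wnt ligands, 7 other Wnt antagonists and 8 Wnt targets, 0 were past 1.5-fold in either direction. Among 10 BMP receptors and signal carriers 1 was higher, Eng, an endothelial co-receptor of the TGF-beta family (109 CPM in the AF12198-treated tumour and 56.8 in the control tumour). In the same list 2 were lower, the signal carrier Smad5 (40.9 and 80.3 CPM) and the receptor Bmpr1b (2.42 and 5.89 CPM). Among 7 BMP targets the inhibitory Smad7 was higher (234 and 171 CPM) and Id4 was lower (16.6 and 33.1 CPM). Among 14 R-spondins and Wnt receptors the R-spondin receptor Lgr5 (6.56 and 12.8 CPM) and the Frizzled receptor Fzd4 (18.5 and 35.7 CPM) were lower. List medians lay between -0.28 and 0.15 on the centred scale.

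The control tumour was next set against the ligated pancreas, which shares the suture injury without the cancer cells. Grem1, Sfrp1 and Sfrp2 stood higher in the control tumour and Bmp2, Bmp4, Bambi, Rspo3 and Sfrp4 lower. Of 10 measured members 3 were higher, where 16.5% of 11224 genes were, and 5 were lower, where 17.4% were; nothing is read from these shares, since the choice of members used this contrast. The members' median was -0.48, and that of all genes before centring 0.11. The excess of Grem1 was 30.4-fold [13.0 to 94.0], on only 5 UMIs in the ligated pancreas, too few to set apart from background. Sfrp1 was 5.72-fold higher [5.30 to 6.19] and Sfrp2 1.90-fold higher [1.74 to 2.08].

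On the lower side, Bmp2 was 3.38-fold lower in the control tumour [2.34 to 4.83], Rspo3 1.98-fold, Bambi 1.95-fold, Bmp4 1.94-fold [1.36 to 2.71] and Sfrp4 1.75-fold. With free RNA subtracted, 2 members were lower instead of 5, and Bmp4 had a centred log2 difference of 0.35. Wnt5a and Id1 had centred log2 differences of -0.04 and 0.15. Within the acinar-enzyme-led sub-cluster 2, which holds most ligated cells and 32 control tumour cells, the gap was smaller for Sfrp1, at 510 CPM in the control tumour and 342 in the ligated pancreas (1.49-fold [1.18 to 1.86], with 53.2% of the control tumour's UMIs in 1 cell), and close to that of the class for Sfrp2, at 504 and 300.2 CPM (1.68-fold [1.33 to 2.11]). There Sfrp4 turned round, at 423 CPM in the control tumour and 149 in the ligated pancreas (2.83-fold higher [2.15 to 3.69]), although 1 control tumour cell held 57.7% of those UMIs. Grem1 in that sub-cluster had 0 UMIs in the control tumour and 1 in the ligated pancreas. The gaps of Sfrp1 and Grem1 between these libraries in the whole class therefore came with different sub-clusters of fibroblast-like cells.

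Acinar markers stood at 44.9 CPM in the class in the control tumour and 727 in the ligated pancreas, and neutrophil markers at 965 and 170 CPM; their part in the result was not tested. The lists of other pathway genes are read beside the 16.5% of all genes that were higher and the 17.4% that were lower. Among 9 other BMP antagonists 4 were higher and 1 lower, with Bmper, a BMP-binding secreted protein, at 195 CPM in the control tumour and 83.3 in the ligated pancreas, Fstl3 at 57.1 and 31.4, and Nbl1 at 268 and 402. Among 6 other BMP ligands 2 were higher and 2 lower, including Gdf6 at 32.8 and 6.81 CPM. Among 8 other Wnt antagonists 4 were higher and 3 lower, with Dkk2, an LRP ligand, at 43.1 and 16.8 CPM and Notum, which strips the lipid from Wnts, at 1.16 and 6.29 CPM. Of 8 Wnt targets 5 were higher and 1 lower, among them the feedback gene Nkd2 at 108 and 36.7 CPM. The remaining lists had 1 higher and 1 lower of 11 BMP receptors and signal carriers, 1 and 0 of 7 BMP targets, 1 and 2 of 6 Wnt ligands and 3 and 3 of 14 R-spondins and Wnt receptors.

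The last comparison sets the ligated pancreas, without a tumour, beside the normal one. Sfrp2, Sfrp4, Sfrp1 and Bambi stood higher in the ligated pancreas and Bmp4, Rspo3 and Id1 lower. Of 9 measured members 4 were higher, where 22% of 11389 genes were, and 3 were lower, where 20.2% were; this contrast too was known when the set was made. The members' median was -0.31 on the centred scale and the all-gene median before centring was -0.04. Grem1 was not measured, with 5 UMIs in the ligated and 0 in the normal pancreas and a level under the 5 CPM that a measured gene needs.

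Sfrp2 was 78.8-fold higher in the ligated pancreas, with a wide interval from 21.7 to 652 because the normal pancreas gave 2 UMIs. Sfrp4 was 25.8-fold higher [10.96 to 79.8], Bambi 2.43-fold [1.21 to 5.53] and Sfrp1 1.62-fold [1.34 to 1.99]. With free RNA subtracted, the centred log2 difference of Bambi was -0.042. Bmp4 was 6.16-fold lower [4.23 to 9.06], Rspo3 4.26-fold [3.17 to 5.75] and Id1, the BMP target, 2.20-fold [1.30 to 3.66]. The Wnt antagonists of the set and its BMP ligand Bmp4 thus stood on opposite sides. Wnt5a and Bmp2 had centred log2 differences of -0.54 and -0.31. Within the acinar-enzyme-led sub-cluster 2, which holds most cells of both libraries, Sfrp2 was 85.7-fold higher and Sfrp4 17.1-fold higher, and Bmp4 was 4.84-fold and Rspo3 3.33-fold lower. Summed mesothelial markers stood at 193 CPM in the ligated class (7 of 8 with a UMI) and 15.7 in the normal class. Most of the ligated sum was 1 gene, Wt1, at 182 CPM, and in the normal class all but Wt1 were at 0. Pericyte markers stood at 367 and 147 CPM and acinar markers at 727 and 944 CPM in the ligated and normal classes. The part of these markers was not tested.

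Among the other pathway genes, Wnt4, a Wnt ligand, stood at 297 CPM in the ligated and 15.7 in the normal pancreas (18.8-fold higher [9.85 to 41.4]), and 5 of the 7 measured Wnt ligands outside the set, Wnt4 among them, were higher and 1 lower, where 22% of all genes were higher and 20.2% lower. Inhba, a subunit of activin, stood at 173 and 12.2 CPM. Smoc2, a matrix-associated protein, was 5.999-fold lower [5.33 to 6.76] in the ligated pancreas. Of 8 other BMP ligands 3 were higher and 5 lower, and of 11 other BMP antagonists 3 were higher and 3 lower. Of 7 Wnt targets 4 were higher, including Ccn4 (61.3 and 6.99 CPM) and Cd44 (112 and 19.2 CPM), and 1 was lower, the cyclin Ccnd1 (18.3 and 136 CPM). The remaining lists had 1 higher and 4 lower of 10 BMP receptors and signal carriers, 2 and 0 of 7 BMP targets, 3 and 1 of 7 Wnt antagonists and 5 and 1 of 13 R-spondins and Wnt receptors.

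**Figure D2:**
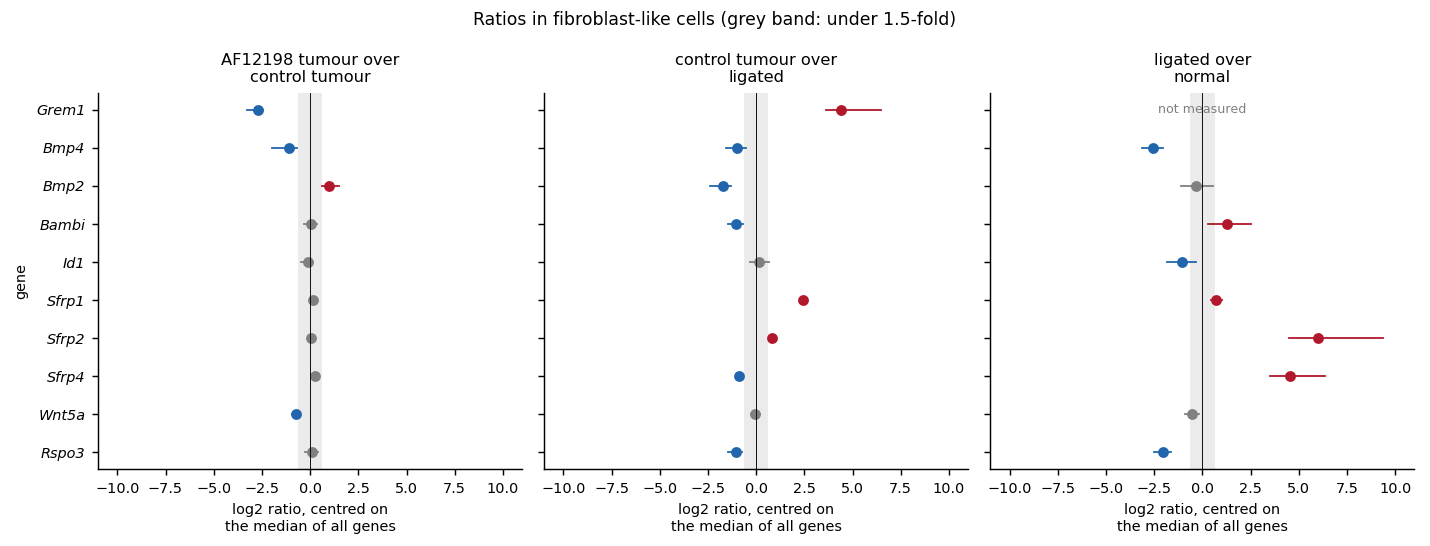
Log2 ratio of CPM + 1 for each member in fibroblast-like cells, centred on the median over all measured genes, for the AF12198-treated over the control tumour, the control tumour over the ligated pancreas and the ligated over the normal pancreas, with error bars for counting intervals and a grey band under 1.5-fold. Grem1 lies at -2.73 in the first comparison and 4.37 in the second, and Sfrp2 lies at 0.03, 0.82 and 5.98.

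Within the tumours the members marked different fibroblast-like sub-clusters. Grem1 was highest in sub-cluster 3, at 36.9 CPM [25.4 to 51.8] in the AF12198-treated tumour and 212 [196 to 230] in the control tumour. That sub-cluster was led by Sema7a, Spp1 and Nrep. Tnc, Lrrc15 and Col8a1, genes of matrix-producing fibroblasts, came last among its 10 leading genes. In sub-cluster 4, led by Ccn5, C1qtnf3 and Thbs4, Grem1 was at 4.26 and 42.1 CPM. In sub-cluster 1, led by Clu, Atp1b1 and Col24a1, it had 0 UMIs in the AF12198-treated tumour and 39.2 CPM in the control tumour, at least 13.9-fold lower against a floor of 3 counts. Sub-cluster 5, led by Crocc2, Vtn and Lrg1, was low for Grem1 in both, at 1.54 and 7.47 CPM. Grem1 stood lower in the AF12198-treated tumour in each of these 4 sub-clusters, although in sub-cluster 5 the interval of the ratio included 1. The cycling sub-cluster 8, with Top2a and Mki67 among its leading genes, was low for Grem1 in both at 4.79 and 3.56 CPM. In the control tumour 8 cells of sub-cluster 3, 2 of sub-cluster 4 and 3 of sub-cluster 1 held at least 50% of its Grem1 UMIs.

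The Sfrp genes had another order over sub-clusters 1 to 5 and 8, which are those not led by immune, erythroid or mesothelial genes. Sfrp2 was highest in sub-cluster 1, at 766 CPM in the AF12198-treated tumour and 935 in the control tumour, and lowest in sub-cluster 3, at 126 and 115 CPM, where Grem1 was highest. Sfrp1 was highest in sub-cluster 4, at 3393 CPM in the AF12198-treated and 3832 CPM in the control tumour. Sub-cluster 8 was the exception to the near equality of Sfrp2, at 252 and 529 CPM, 2.10-fold lower [1.79 to 2.47] in the AF12198-treated tumour. Sfrp4 stood higher in the AF12198-treated tumour in sub-cluster 3 (171 and 83.0 CPM) and lower in sub-cluster 2 (153 and 423 CPM), but 1 cell held 87.6% of its UMIs in sub-cluster 3 of the AF12198-treated tumour and 1 cell 57.7% in sub-cluster 2 of the control tumour.

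The difference of Wnt5a was largest in sub-cluster 1 among those with at least 20 cells in each tumour, at 52.8 CPM in the AF12198-treated tumour and 211 in the control tumour (4.00-fold lower [3.03 to 5.37]). It was 26.2 and 54.8 CPM in sub-cluster 5, and 59.2 and 76.9 in sub-cluster 3, where the interval included 1. Sub-cluster 8 had 37.2 and 90.0 CPM of Wnt5a and sub-cluster 4 had 69.8 and 95.6 CPM. In sub-cluster 2 Wnt5a was not lower in the AF12198-treated tumour, at 139 and 130 CPM (20 and 24 UMIs). Rspo3 was highest in sub-cluster 5 in both tumours, with 60.0 CPM in the AF12198-treated tumour and 60.6 in the control tumour. Id1 was at 20.1 and 39.9 CPM in sub-cluster 3, where the AF12198-treated tumour was 1.98-fold lower [1.20 to 3.47]. Sub-cluster 3 of the control tumour thus had the most of both the antagonist Grem1 and the BMP target Id1 among sub-clusters 1 to 5 and 8.

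**Figure D3:**
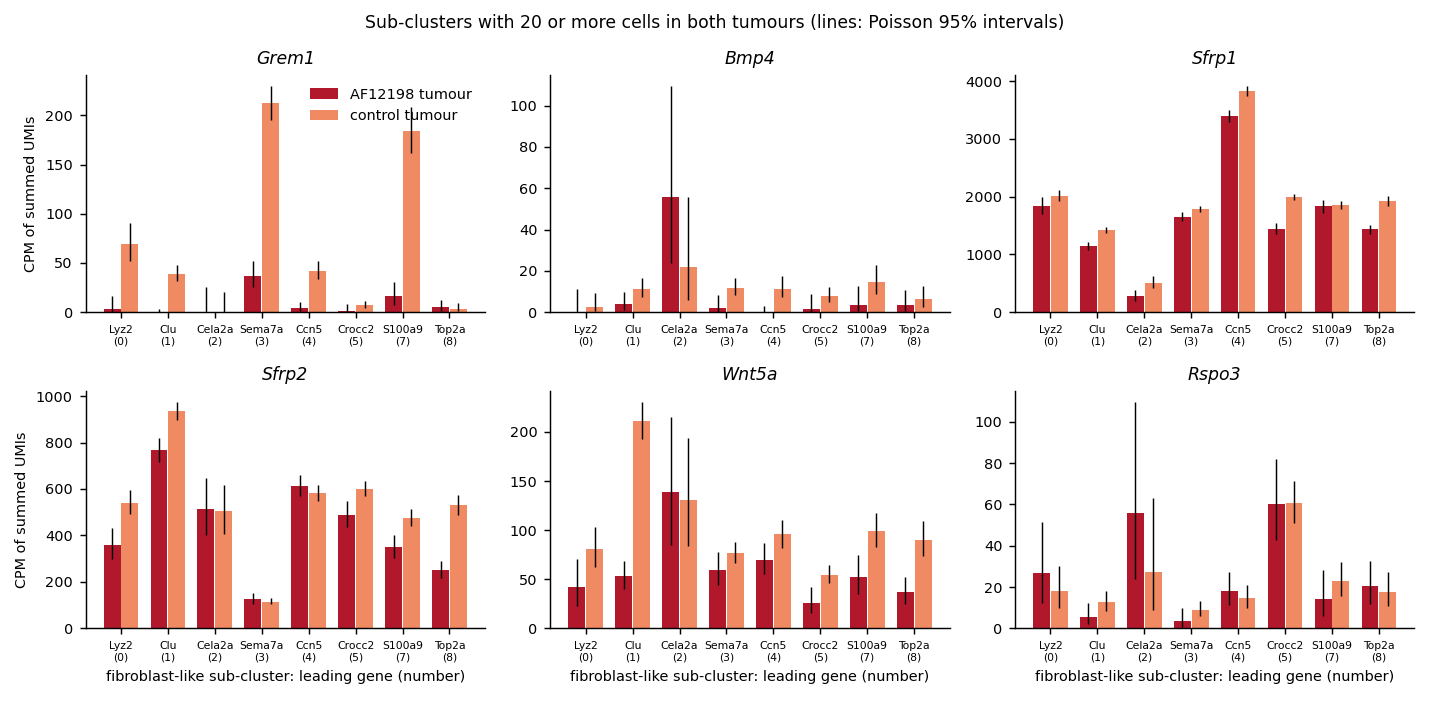
Level in CPM of 6 members in the fibroblast-like sub-clusters that had at least 20 cells in each tumour, for the AF12198-treated tumour and the control tumour, with error bars for exact 95% intervals. Grem1 peaks in sub-cluster 3 (36.9 and 212 CPM) while Sfrp2 is lowest there (126 and 115 CPM), and the gap in Wnt5a is widest in sub-cluster 1.

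In the control tumour the 117 fibroblast-like cells with a Grem1 UMI had a median total of 13414 UMIs, against 8039 in the 1233 cells without one. Their Sfrp1 level was 2477 CPM against 1934 in the cells without, Sfrp4 190.3 against 120.3, Id1 38.1 against 24.2 and Bmp2 13.7 against 6.39. Sfrp2 and Rspo3 were the other way, at 325 against 551 CPM and 11.3 against 23.5 CPM, and Wnt5a was alike at 112 against 107 CPM. The cells were split by a detection that depends on depth, so these values describe the cells and carry no test.

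Over the whole tumours the set divides into genes with 1 source and genes with several. Fibroblast-like cells were 2.78% of cells in the AF12198-treated tumour and 7.02% in the control tumour, yet they held 97.1% and 97.5% of the Sfrp1 UMIs, 96.4% and 97.3% of the Sfrp2 UMIs and 96.6% and 97.6% of the Sfrp4 UMIs. For Grem1 they held 19.4% of 273 UMIs in the AF12198-treated tumour and 92.6% of 1184 in the control tumour. Epithelial-like cells held 74.0% and 4.05% of it. Bmp4 came mostly from epithelial-like cells in both tumours (64.9% and 52.3%), with 10.0% and 25.6% from fibroblast-like and 19.2% and 17.0% from endothelial-like cells. Of the Bmp2 UMIs, macrophage- and monocyte-like cells held 46.0% and 35.7% and epithelial-like cells 22.2% and 43.3%. Fibroblast-like cells held 55.8% and 80.4% of Wnt5a and 59.6% and 91.5% of Rspo3. These shares also move with the number of cells of each class that a library caught.

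**Figure D4:**
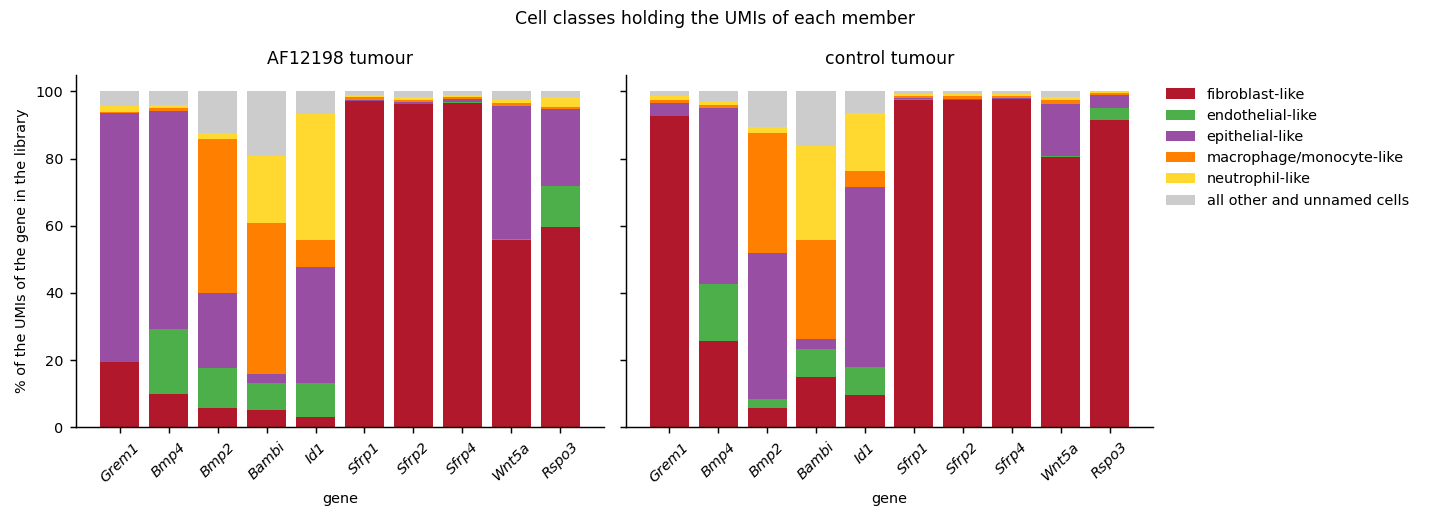
Share, in percent, of each member's UMIs that came from each class of cells in the AF12198-treated tumour and in the control tumour, as stacked bars. The 3 Sfrp genes come almost wholly from fibroblast-like cells in both, and Grem1 comes mostly from epithelial-like cells in the AF12198-treated tumour (74.0%) and from fibroblast-like cells in the control tumour (92.6%).

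In epithelial-like cells, which in the tumours are mostly tumour cells with 80 duct-like cells each and in the pancreas duct cells, Grem1 stood the other way from fibroblast-like cells. It stood at 15.4 CPM [13.4 to 17.7] in the AF12198-treated tumour (202 UMIs in 54 cells), 2.90 [2.14 to 3.85] in the control tumour (48 UMIs in 18 cells) and 0 in the ligated and normal pancreas. The excess in the AF12198-treated tumour was 5.31-fold [3.86 to 7.43], with 10 cells holding at least 50% of the UMIs there. A Grem1 UMI was found in 4.57% and 1.41% of the epithelial-like cells of the AF12198-treated and control tumours, more than the share in T-like cells given earlier. The T-like cells were shallower, though. Epithelial-like cells without Grem1 had medians of 4092.5 and 5323.5 UMIs in these tumours, and those with it 21542.5 and 34982.5. The shares are thus not compared at equal depth and do not by themselves set Grem1 apart from background. In macrophage- and monocyte-like cluster 5 of the AF12198-treated tumour, 0 of 2145 cells had a Grem1 UMI. Those cells had a median of 8459 UMIs, deeper than T-like cells but shallower than the epithelial-like cells with Grem1. Almost all of the epithelial-like Grem1 lay in cluster 15, the tumour cluster of larger libraries led by Onecut2, Cxcl5 and Foxq1. It stood there at 19.1 and 3.39 CPM, while cluster 2 gave 3 and 0 UMIs.

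The epithelial-like cells with Grem1 had more fibroblast marker UMIs and fewer epithelial marker UMIs than the cells without it. In cluster 15 of the AF12198-treated tumour, the 50 cells with a Grem1 UMI had 568 CPM of summed fibroblast markers, against 224 in the cells without, and in fibroblast-like cells of that library the sum was 50398 CPM. Their summed epithelial markers were at 2052 CPM against 8670. In the control tumour 17 such cells had 991 CPM of fibroblast markers against 292 in the cells without, and 6136 CPM of epithelial markers against 7870. Cells with Grem1 were again deeper, with a median of 22137 UMIs against 15731 in the AF12198-treated tumour.

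The BMP ligands were also expressed in tumour epithelial-like cells. Bmp2 stood at 21.9 CPM in the AF12198-treated tumour, 45.6 in the control tumour, 2.26 in the ligated pancreas and 0.662 in the normal pancreas, and was 2.08-fold lower [1.82 to 2.39] in the AF12198-treated than in the control tumour. Bmp4 stood at 11.8, 20.6, 0 and 0.993 CPM across the same 4 libraries, at least 15.2-fold higher in the control tumour than in the ligated pancreas by a floor of 3 counts. Id1 stood at 98.4, 119, 9.50 and 8.38 CPM, 12.5-fold higher [8.18 to 20.3] in the control tumour than in the ligated pancreas. Bmp2, Bmp4 and Id1 were thus high in tumour epithelial-like cells and low in duct cells, while the pseudoreceptor Bambi was the reverse at 3.66, 3.33, 30.8 and 41.7 CPM. The pathway genes outside the set did not share 1 direction. Of 5 other BMP ligands, 2 were higher and 3 lower in the control tumour than in the ligated pancreas. Of 5 other BMP targets 1 was higher and 2 lower, where 32.1% of all genes were higher and 32.3% lower.

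These tumour and duct cells lie in different clusters. Of the AF12198-treated and control tumours, 604 and 645 cells were in cluster 2 and 498 and 553 in cluster 15, while 328 and 666 cells of the ligated and normal pancreas were in cluster 26. Within cluster 26, where each tumour has 80 cells, Bambi stood at 35.8 CPM in the control tumour and 31.3 in the ligated pancreas, so the gap in Bambi was not seen among the duct-like cells. In all epithelial-like cells together, Wnt5a stood at 16.9, 17.0, 4.98 and 8.49 CPM across the 4 libraries. There Rspo3 was at 3.28 CPM in the AF12198-treated tumour (43 UMIs) and 0.726 in the control tumour (12 UMIs), 4.52-fold higher [2.34 to 9.42]. Both levels are under the 5 CPM that a measured gene needs, so Rspo3 is not counted among the measured members. Sfrp1 stood at 3.05 and 6.59 CPM in the AF12198-treated and control tumours, no higher than in the blood cells of those libraries (5.42 and 14.9 CPM) and read as background. In duct cells it was at 7.24 CPM in the ligated and 29.9 CPM in the normal pancreas, 4.13-fold lower [2.50 to 7.33] in the ligated pancreas.

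Of the 6 members measured in epithelial-like cells, 1 was higher and 2 lower in the AF12198-treated than in the control tumour, where 14.6% and 7.7% of all measured genes were higher and lower, and the lower pair includes Sfrp1 at background level. In the control tumour against the ligated pancreas 4 of 6 were higher and 1 lower (32.1% and 32.3% of all genes), and in the ligated against the normal pancreas 0 of 4 were higher and 2 lower, Sfrp1 and Wnt5a (10.2% and 12.8%), with an interval that included 1 for Wnt5a.

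In endothelial-like cells Grem1 had 0 UMIs in all 4 libraries, and the set showed Id1 and the BMP ligands instead. Id1 stood at 177 CPM [160 to 196] in the AF12198-treated tumour, 147 [131 to 165] in the control tumour, 164 in the ligated pancreas and 178 in the normal pancreas, a narrow range. Bmp2 stood at 72.6, 23.0, 14.7 and 1.51 CPM across these libraries, and was 3.15-fold higher [2.26 to 4.47] in the AF12198-treated than in the control tumour, where 6 cells of the AF12198-treated tumour held at least 50% of its UMIs. Bmp4 stood at 21.4, 54.4, 61.6 and 34.7 CPM, and was 2.54-fold lower [1.79 to 3.66] in the AF12198-treated tumour. The 2 ligands thus stood on opposite sides between the tumours in endothelial-like cells.

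Bambi stood at 69.8, 74.5, 29.3 and 71.0 CPM in endothelial-like cells, lowest in the ligated pancreas. In the tumours Rspo3 was found in the lymphatic cluster only (led by Ccl21a and Mmrn1). It stood there at 61.0 CPM in the AF12198-treated tumour (23 UMIs) and 32.1 CPM in the control tumour (12 UMIs), with 0 in the blood vessel cluster of both. The lymphatic cluster held 34, 101, 38 and 3 cells across the 4 libraries and the blood vessel cluster 310, 400, 92 and 257. Endothelial-like levels thus compare different mixes of these cells, and the part of the mix was not tested. Sfrp1 stood at 2.79 CPM in the AF12198-treated and 16.2 CPM in the control tumour, close to the blood cells of those libraries. Of 6 members measured, 2 were higher and 2 lower in the AF12198-treated than in the control tumour (18.1% and 15.8% of all genes), 3 higher and 1 lower in the control tumour than in the ligated pancreas (29.8% and 28.2%), and of 5 measured 3 were higher and 1 lower in the ligated than in the normal pancreas (25.8% and 26.1%). The interval of the ratio included 1 for Rspo3 in the first of these comparisons, for Bmp2, Sfrp1 and Rspo3 in the second and for Bmp4 in the third.

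Among immune cells, values are given for Id1, Bambi, Bmp2 and Sfrp1. In neutrophil-like cells Id1 stood at 118 CPM in the AF12198-treated tumour and 65.2 in the control tumour, 1.81-fold higher [1.64 to 1.99], where 14.8% of all measured genes were higher and 14% lower, and Bambi at 31.3 and 52.1 CPM. Sfrp1 stood there at 6.15 and 17.9 CPM, which is read as background. The neutrophil-like cells of the tumours lay in different clusters, with 3838 and 156 cells in cluster 0, 2360 and 169 in cluster 8 and 105 and 4019 in cluster 9 for the AF12198-treated and control tumours. Within clusters the Id1 gap was smaller, at 212 and 176 CPM in cluster 8, 98.0 and 74.4 in cluster 1, 74.6 and 51.9 in cluster 0 and 65.6 and 57.7 in cluster 9. In macrophage- and monocyte-like cells Bmp2 stood at 20.9 and 32.3 CPM, 1.54-fold lower in the AF12198-treated tumour but within 1.5-fold after centring, Bambi at 29.8 and 27.8 CPM and Id1 at 10.7 and 9.34 CPM, and no member but the background-level Sfrp1 was past 1.5-fold (14% of all measured genes were higher and 8.44% lower). These cells too were spread unevenly, with 798 and 2364 cells in cluster 7 and 2145 and 879 in cluster 5. In cluster 7 Bmp2 stood the other way, at 94.8 CPM in the AF12198-treated and 58.2 CPM in the control tumour, and in cluster 5 it was at 7.25 and 6.46 CPM.

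Across 33 profiles, each a class of cells in 1 library, the genes whose log2(CPM + 1) was most like Grem1 were Ereg (Pearson r = 0.71), Steap1 (0.68), Tpbg and Stra6 (0.66 each) and Wt1 (0.64). For Sfrp2 they were Rspo1 and Col6a5 (0.93 each), Cpz (0.92), Gdpd2 and Lama1 (0.91 each). Of the other members, Sfrp4 correlated with Sfrp2 at 0.83, Sfrp1 at 0.81 and Grem1 at 0.42. The profiles share libraries and differ in depth and number of cells, so these values are a description without a p-value. Grem1 had no partner as close as those of Sfrp2.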

How the data were processed

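Single-cell suspensions of 4 mouse tissues were measured with droplet 3' RNA sequencing, 1 library per group. The authors deposited raw counts of UMIs per gene and barcode, made with Cell Ranger 6.0.0 on mm10 per the submitters' processing notes. The files hold 21840 barcodes for the AF12198-treated tumour, 23189 for the control tumour, 1165 for the ligated and 1844 for the normal pancreas.

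Cells with at least 250 genes, at least 500 UMIs and at most 20% mitochondrial UMIs were kept. Doublets called by Scrublet in Scanpy 1.11.5 were removed (993, 2163, 0 and 1 cells). In the AF12198-treated tumour the caller marked too few cells, and the 5% with the highest scores were removed. Leiden clustering at resolution 1 used 2000 variable genes without the 10 members and 40 principal components. A cluster took a class name with at least 3 markers raised 2-fold and found in 10% of its cells, and was left without a name if 5 or more markers, and 40% of the list, of another class were raised too. Unnamed cells were 4.91%, 2.23%, 14.5% and 34.7% of the libraries in the same order.

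UMIs were summed per class and library and divided by the class total (CPM). Intervals are exact Poisson, Clopper-Pearson or conditional ones at 95% and cover counting error only. A gene was measured with at least 5 UMIs in both libraries together and 5 CPM in 1 of them. A fold against 0 used a floor of 3 counts. Named pathway genes were, per list and comparison, up to 3 with the largest centred ratio past 1.5-fold whose interval excluded 1, and for likeness the 5 highest correlations. The members, gene lists, markers and naming thresholds were chosen with earlier results of these data known. Motifs were searched on RefSeq promoters.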

Additional observations from a re-analysis of the deposited data

Results flagged for a closer look

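The values here are differences, on the centred log2 scale, between the ratios of 1 gene in 2 classes of cells that lay past 1.5-fold on opposite sides. None of these differences was tested, since each group has 1 library.

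Between the AF12198-treated and the control tumour, Grem1 was higher in epithelial-like cells (2.38) and lower in fibroblast-like cells (-2.73), a difference of 5.11. Bmp2 was higher in fibroblast-like cells (0.98) and in endothelial-like cells (1.83) and lower in epithelial-like cells (-0.72), differences of 1.70 and 2.54.

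Between the control tumour and the ligated pancreas, Bmp4 was higher in epithelial-like cells (4.69) and lower in fibroblast-like cells (-1.01), a difference of 5.70. For Bmp2 the values were 4.09 and -1.74, a difference of 5.83. Bambi was higher in endothelial-like cells (1.45) and lower in fibroblast-like cells (-1.04) and epithelial-like cells (-2.62), differences of 2.49 and 4.07.

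Between the ligated and the normal pancreas, Bambi was higher in fibroblast-like cells (1.26) and lower in endothelial-like cells (-1.44), a difference of 2.71. Sfrp1 was higher in fibroblast-like cells (0.73) and lower in epithelial-like cells (-1.98), a difference of 2.71. Rspo3 was higher in endothelial-like cells (2.45) and lower in fibroblast-like cells (-2.03), a difference of 4.48. It had 5 UMIs in ligated and 1 in normal endothelial-like cells. Of those cells, 38 of 130 in the ligated and 3 of 260 in the normal pancreas were in the lymphatic cluster. The part of that mix in the Rspo3 and Bambi values was not tested.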

How the results depend on the processing

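Over 62 ratios and 14 alternative settings, 769 values were computed, of which 665 lay within the counting interval of the reported value, 97 moved beyond it and 7 changed sign. On the centred log2 scale, Bmp4 in fibroblast-like cells of the AF12198-treated against the control tumour was 0.26 at Leiden resolution 2.0, and Bmp2 in the same comparison was -0.057 when each cell was classed by a marker gate. With free RNA subtracted, Bmp4 in fibroblast-like cells of the control tumour against the ligated pancreas was 0.35 and Bambi in those of the ligated against the normal pancreas was -0.042. Sfrp1 in epithelial-like cells of the AF12198-treated against the control tumour was 0.76 with a stricter cell filter and 0.25 with free RNA subtracted. Bambi in epithelial-like cells of the control tumour against the ligated pancreas was 0.21 in the cluster with most UMIs. In fibroblast-like cells the count of members higher in the AF12198-treated than in the control tumour, 1 as reported, was 3 at resolution 2.0 and 0 at 2-fold, and the count lower in the control tumour than in the ligated pancreas, 5 as reported, was 2 with free RNA subtracted. The causes of these changes were not tested.

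Grem1 in fibroblast-like cells of the AF12198-treated against the control tumour stayed lower under each setting, at -1.80 with the marker gate and -2.18 as a mean over cells. Most moved values came from free RNA subtraction (25 of 62), the marker gate (20 of 62) and the mean over cells (18 of 62). The alternatives that left out mixed sub-clusters and that kept the epithelial-like cluster with most UMIs were chosen after seeing the data. Restriction to the fibroblast-like cluster with most cells was not run apart, since there was 1 such cluster. At resolution 0.5 and with called doublets kept, epithelial-like cells gave no values for comparisons with the ligated or normal pancreas. No paired analysis was possible because each group has 1 library.

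Depth limited the low counts most: Grem1 in the ligated and normal pancreas, and Sfrp2 and Sfrp4 in the normal pancreas, rest on 0 to 5 UMIs.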
